A study of Mus musculus with 192 samples.

Results

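The cerebral cortex of mice given either of the 2 lower doses of fentanyl was followed over time by small RNA sequencing. Libraries were chosen by their labels and mouse numbers, as cortex of the LOEL group (62 mg/kg) or of the LD10 group (110 mg/kg) from mice FP16 to FP58, without FP24. This gave 30 of the 32 cortical libraries of these doses, out of 63 cortical columns and 192 samples in the series. All were adult male SKH-1 Elite mice, a hairless outbred strain, that received fentanyl citrate in Ringer's solution under the skin. LOEL is the name in the sample labels for the dose that the study's methods call HNLD, the highest non-lethal dose, and LD10 is named for a dose lethal to a small share of animals. LOEL held 4 mice at 0 hour (FP25, FP30, FP32 and FP47), 4 at 6 hours (FP33, FP38, FP45 and FP49), 4 at 24 hours (FP39, FP54, FP57 and FP58) and 3 at 7 days (FP40, FP52 and FP53). LD10 held 4 at 0 hour (FP20, FP21, FP48 and FP55), 3 at 6 hours (FP22, FP42 and FP44), 4 at 24 hours (FP19, FP23, FP51 and FP56) and 4 at 7 days (FP16, FP17, FP27 and FP41). Each mouse gave 1 cortical library and belongs to 1 time only. The 0 hour mice were killed 40 min after the injection, so the reference of every comparison had already received fentanyl. Sham mice were not used here, and a change with time after fentanyl cannot be told apart from a change that handling or the hour of killing would also give.

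A miRNA is cut from a hairpin precursor, which can yield one mature strand from its left arm (5p) and another from its right arm (3p), and the mature strand guides a silencing complex to messenger RNAs. The seed, bases 2 to 8 counted from the 5′ end, largely sets which messages are bound, so miRNAs with one seed form a family. Fentanyl acts on the mu-opioid receptor, which is present on cortical neurons, and it depresses breathing. Neurons, oligodendrocytes, blood cells and the ventricle lining each carry miRNAs typical of them, so a profile of bulk cortex reflects both how much of a miRNA a cell holds and how many such cells were in the piece. Fewer cells of a type and less RNA per cell cannot be told apart in these libraries.

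The mature sequences below belong to the 6 miRNAs that rose most and the 6 that fell most at LOEL between 0 hour and 6 hours, and capitals mark the seed. The first 6 rose.
miR-494-3p: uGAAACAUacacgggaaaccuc
miR-188-5p: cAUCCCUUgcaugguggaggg
miR-323-3p: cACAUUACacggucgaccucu
miR-667-3p: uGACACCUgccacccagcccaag
miR-149-5p: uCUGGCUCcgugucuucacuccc
miR-1249-3p: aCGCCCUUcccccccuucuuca
The next 6 fell, and miR-100-5p and miR-99b-5p among them share the seed ACCCGUA.
miR-429-3p: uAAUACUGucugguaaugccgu
miR-100-5p: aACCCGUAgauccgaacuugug
miR-325-3p: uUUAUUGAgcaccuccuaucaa
miR-221-5p: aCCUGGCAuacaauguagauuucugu
miR-99b-5p: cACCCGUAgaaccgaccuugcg
miR-376a-3p: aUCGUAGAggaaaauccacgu
Both arms of the miR-132 hairpin follow, since they moved in opposite directions, with miR-212-3p, which has the seed of miR-132-3p, and with 2 oligodendrocyte miRNAs that fell.
miR-132-3p: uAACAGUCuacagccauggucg
miR-132-5p: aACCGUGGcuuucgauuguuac
miR-212-3p: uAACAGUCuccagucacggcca
miR-338-3p: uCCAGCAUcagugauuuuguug
miR-219a-5p: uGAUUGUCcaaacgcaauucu
The last set holds the members of the 200 family and of the 183-96-182 cluster whose course differed between the doses at 7 days.
miR-141-3p: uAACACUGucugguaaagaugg
miR-200a-3p: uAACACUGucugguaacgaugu
miR-200b-3p: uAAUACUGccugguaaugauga
miR-200c-3p: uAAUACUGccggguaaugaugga
miR-182-5p: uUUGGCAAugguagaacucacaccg
miR-96-5p: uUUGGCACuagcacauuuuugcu
miR-183-5p: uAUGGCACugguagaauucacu
The seed AACACUG is common to miR-141-3p and miR-200a-3p, and AAUACUG to miR-200b-3p, miR-200c-3p and miR-429-3p. Sequences are those of RefSeq with GRCm38.p6, which held 415 of the 474 miRNAs tested.

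Positions were found by matching these sequences to NCBIM37, the assembly also called mm9. The arms of miR-132 lie on the forward strand at chr11:74987188-74987209 (5p) and chr11:74987225-74987246 (3p), in an intron of the lincRNA gene 1700016P03Rik. miR-338-3p lies at chr11:119876095-119876116 in an intron of Aatk, a kinase gene, and miR-149-5p at chr1:94746958-94746980 in an intron of Gpc1, which encodes a heparan sulfate proteoglycan of the cell surface. miR-323-3p (chr12:110950768-110950788), miR-494-3p (chr12:110953577-110953598) and miR-667-3p (chr12:110958271-110958293) belong to the imprinted cluster of chromosome 12, which is expressed from the maternal copy. miR-200b-3p, miR-200a-3p and miR-429-3p share a stretch of the reverse strand between chr4:155428025-155428046 (miR-429-3p) and chr4:155429794-155429815 (miR-200b-3p), in introns of Ttll10. miR-141-3p and miR-200c-3p are neighbours at chr6:124667935-124667956 and chr6:124668342-124668364, in an intron of the non-coding gene Gm15884. miR-182-5p, miR-96-5p and miR-183-5p lie at chr6:30115962-30115986, chr6:30119506-30119528 and chr6:30119711-30119732, outside annotated host genes.

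The libraries held 2198954 to 8381425 reads (median 4787979) and 881 to 1084 detected miRNAs each. Values are TMM-scaled, so that the reads of each library were put on a common scale, and 1 read was worth 0.1193 to 0.4273. For the tissue label, miR-9-5p, a neural miRNA, stood at 47000 to 82300 in every library. Of the muscle list, miR-206-3p reached no more than 0.835 and miR-1a-3p was at 6.85 to 28.2, but miR-133a-3p was at 212 to 1500. Of the liver list, miR-122-5p was at 0.3 to 95.6, but miR-192-5p was at 1630 to 2580 and miR-194-5p at 142 to 284. The 4 LOEL libraries of 6 hours were shallower (2198954 to 3812303 reads) than every other LOEL library (at least 4251695). FP24, a LOEL mouse of 7 days with 1775669 reads, is left out by the rule. Adding it alone took the calls at LOEL 6 hours described next from 57 to 13. FPB2, the remaining LD10 mouse of 6 hours, has a number outside the range.

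At LOEL, a set of cortical miRNAs differed between 6 hours and 0 hour, while no miRNA passed the test at 24 hours or 7 days. Of the 474 miRNAs tested, 27 increased and 30 decreased at 6 hours (limma, Benjamini-Hochberg adjusted p below 0.05), which is 57 in all or 12% of those tested (5.7% higher and 6.33% lower). At an unadjusted p below 0.05 there were 170 (35.9%), of which 70 were higher (14.8%) and 100 lower (21.1%). At 24 hours 0 passed (0%), with 7 at an unadjusted p below 0.05 (1.48%), 3 of them higher (0.633%) and 4 lower (0.844%). At 7 days 0 passed (0%), with 22 at an unadjusted p below 0.05 (4.64%), 10 of them higher (2.11%) and 12 lower (2.53%). edgeR's quasi-likelihood test on recovered reads also gave 0 at both times, while DESeq2 gave 0 at 24 hours and 9 at 7 days. A test over the 4 times at LOEL called 55 miRNAs (11.6%). The adjusted p of the 57 ran from 0.0282 to 0.0481, so that all of them lay near the threshold. No call was left without FP45, FP49, FP32 or FP47, 1 was left without FP30 and 16 without FP38, and there were 114 without FP25 and 110 without FP44 of LD10. edgeR called 67 (54 of them among the 57) and DESeq2 104 (56 among the 57). The direction of none of the 57 turned when any library was left out or under any alternative that was run.

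Among the miRNAs that increased, miR-188-5p stood at 39.9, 24.2, 27 and 30.7 in the 4 LOEL mice of 0 hour and at 56.5, 72.9, 92.3 and 86.8 in the 4 mice of 6 hours (values are given in the order of the mouse numbers above). The groups did not overlap, and the change was 1.31 ± 0.40 on the log2(value + 1) scale (SE, adjusted p = 0.0368). It is encoded on the X chromosome within an intron of Clcn5. By 24 hours it was at 48.1, 39.3, 16.7 and 28, and at 7 days at 44.5, 24.1 and 58.2.

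miR-323-3p rose from 366, 373, 496 and 311 to 973, 733, 875 and 1140 (log2 change 1.27 ± 0.33, adjusted p = 0.0282), and miR-667-3p, from the same cluster, rose from 449, 523, 451 and 359 to 787, 1010, 1170 and 1170 (1.21 ± 0.33, adjusted p = 0.0318). In both, each mouse of 6 hours exceeded each mouse of 0 hour. miR-494-3p, a further member, was scarce, at 1.83, 1.41, 5.8 and 4.27 against 10.5, 9.08, 12 and 12.6 (1.60 ± 0.43, adjusted p = 0.0318). For miR-494-3p the mice of 6 hours alone met the filter for testing, a value of 10 in 3 or more libraries. No LOEL mouse of 0 hour reached 10, so its test is not independent of the filter. miR-149-5p went from 2420, 1630, 1480 and 1320 to 2470, 3680, 4540 and 4470 (1.14 ± 0.34, adjusted p = 0.0368), with the highest mouse of 0 hour just below the lowest of 6 hours. For miR-1249-3p the values were 291, 269, 253 and 133 against 292, 549, 580 and 663 (1.14 ± 0.33, adjusted p = 0.0368), and FP33 at 6 hours was level with FP25 at 0 hour.

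Among the miRNAs that decreased, miR-100-5p and miR-99b-5p are of one seed family, long studied as restraints on growth signalling. miR-100-5p fell from 896, 1930, 3830 and 1060 to 604, 508, 434 and 410 (log2 change −1.75 ± 0.53, adjusted p = 0.0368). miR-99b-5p fell from 2190, 5540, 9130 and 2710 to 2150, 1460, 1280 and 1400 (−1.43 ± 0.47, adjusted p = 0.0462). Both spread widely at 0 hour, where FP32 was highest. The remaining tested member with this seed, miR-99a-5p, stood at 498, 842, 1230 and 645 against 679, 560, 538 and 517 and did not pass (−0.41, adjusted p = 0.241). It was looked at after its values had been seen.

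miR-325-3p, encoded on the X chromosome, fell from 28.1, 57.3, 31.2 and 34 to 7.26, 14.9, 12 and 12.1 (−1.60 ± 0.41, adjusted p = 0.0282). miR-221-5p, the partner strand of a miRNA that restrains cell cycle inhibitors, fell from 27.2, 43, 60 and 50.6 to 18, 15.4, 10.7 and 14.7 (−1.52 ± 0.38, adjusted p = 0.0282). In neither did the groups overlap. miR-376a-3p of the chromosome 12 cluster fell from 137, 217, 300 and 225 to 107, 88.5, 70.1 and 68.1 (−1.36 ± 0.41, adjusted p = 0.0368). miR-429-3p, of the 200 family, had the largest fall among those that passed (−2.59 ± 0.83, adjusted p = 0.0427), with 439, 67, 1480 and 378 at 0 hour and 279, 35, 30.3 and 39.2 at 6 hours. Its groups overlapped, since FP33 of 6 hours lay above FP30 of 0 hour, while the other 3 mice of 6 hours lay below every mouse of 0 hour.

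Of the 57 miRNAs, 48 had no overlap between the 4 mice of 6 hours and the 4 of 0 hour, which held for 89 of all 474 (18.8%). At the later times the levels lay near those of 0 hour. The median log2 change of the 27 that had risen was 0.92 at 6 hours, 0.04 at 24 hours and 0.21 at 7 days, where the median over all tested miRNAs was −0.02, 0.02 and 0.04. The median of the 30 that had fallen was −0.95, 0.11 and 0.01. The same 0 hour mice serve all of these comparisons.

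**Figure D1:**
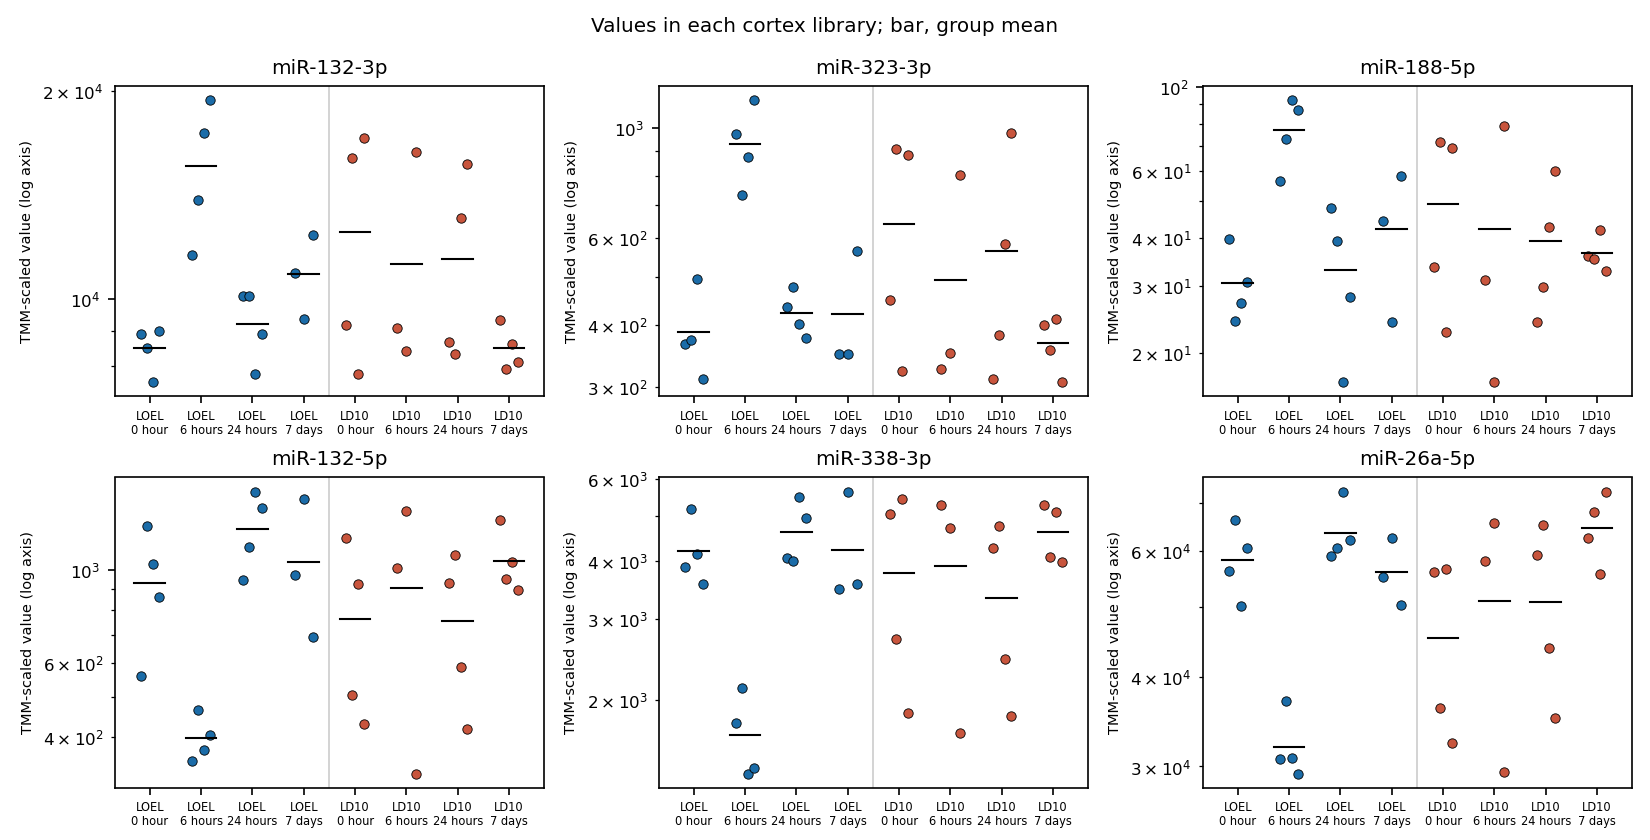
TMM-scaled values (log axis) of 6 miRNAs in each cortical library, in blue for LOEL and red for LD10, by time, with a bar at the group mean. At LOEL the 4 mice of 6 hours sit together, at 11600 to 19400 for miR-132-3p and 29300 to 37000 for miR-26a-5p, while LD10 groups before 7 days hold some mice at those levels and some at the levels of LOEL 0 hour.

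Both arms of miR-132, which neuronal activity induces through CREB and which regulates dendrites, passed the test at LOEL in opposite directions. miR-132-3p rose from 8920, 8520, 7590 and 9010 to 11600, 13900, 17400 and 19400 (log2 change 0.85 ± 0.24, adjusted p = 0.0344). miR-132-5p fell from 560, 1270, 1030 and 859 to 351, 465, 373 and 405 (−1.17 ± 0.37, adjusted p = 0.0427). Neither pair of groups overlapped. The ratio of the 3p to the 5p arm was 15.9, 6.73, 7.35 and 10.5 at 0 hour and 33, 29.8, 46.8 and 47.8 at 6 hours. It was 5.08 to 10.7 at 24 hours and 6.35 to 17.9 at 7 days. miR-212-3p, which is made from the neighbouring hairpin and has the seed of miR-132-3p, did not follow it, with 871, 1160, 1330 and 1060 against 755, 865, 769 and 861 (−0.43, adjusted p = 0.0775). Of the 7 tested members of the neuronal activity list, 1 rose and 1 fell, against 5.7% and 6.33% of all miRNAs, and both are arms of miR-132 (median log2 change −0.37, −0.02 over all miRNAs).

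Arms of one hairpin were compared for all 133 stems with both arms tested. At LOEL 6 hours the arms of 73 stems (54.9%) had opposite signs. Both arms were called in 4 stems, and miR-132 was the 1 among them whose arms went opposite ways. The arms of miR-338 and of miR-383 both fell and those of miR-382 both rose. In a further 27 stems 1 arm was called. miR-29a, chosen like miR-124, miR-382 and miR-383 after its values had been seen, is an example, as miR-29a-3p fell from 12600, 19200, 11600 and 17500 to 5600, 8650, 7350 and 5530 (−1.16 ± 0.30, adjusted p = 0.0308) while its 5p arm had a log2 change of 0.82 (adjusted p = 0.0711). For miR-124 the 3p arm fell and the 5p arm had a change of 0.48 (adjusted p = 0.0617).

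Of 4 tested miRNAs of oligodendrocytes, the cells that make myelin, 3 fell at LOEL 6 hours and none rose, against 6.33% lower and 5.7% higher over all miRNAs (median −1.05, −0.02 over all). Among these 3, miR-338-3p and miR-338-5p are arms of the same hairpin and so are not separate members. miR-338-3p, which promotes oligodendrocyte maturation, fell from 3880, 5170, 4130 and 3570 to 1790, 2130, 1390 and 1430 (−1.32 ± 0.33, adjusted p = 0.0282). miR-219a-5p, which has the same role, fell from 246, 315, 343 and 306 to 142, 175, 131 and 106 (−1.13 ± 0.33, adjusted p = 0.0368), and miR-338-5p from 120, 253, 352 and 156 to 111, 114, 93.2 and 93.7 (−0.97 ± 0.32, adjusted p = 0.0481). All 4 mice of 6 hours lay below all 4 of 0 hour for each of these 3, which were called on these same mice. Over all 474 miRNAs this held for 48 (10.1%). The remaining member, miR-219a-2-3p, named after its values had been seen, stood at 588, 667, 566 and 835 and at 881, 596, 546 and 647 (log2 change 0.00, adjusted p = 0.999), with overlapping groups. The summed level of the list was 4840 to 6410 at 0 hour, 2170 to 3010 at 6 hours, 5230 to 6820 at 24 hours and 4770 to 7030 at 7 days.

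Of 10 tested members of the neuronal list, 2 fell and none rose, against 6.33% lower and 5.7% higher over all miRNAs (median 0.11, −0.02 over all). At an unadjusted p below 0.05, 2 were higher and 4 lower, against 14.8% and 21.1% over all. The summed level was 112000 to 161000 at 0 hour and 122000 to 144000 at 6 hours. miR-124-3p, which is highly enriched in neurons, fell from 4120, 8280, 7270 and 6250 to 2780, 3080, 2850 and 2680 (−1.14 ± 0.37, adjusted p = 0.0458). miR-128-3p, which limits neuronal excitability, fell from 38100, 34600, 30300 and 42400 to 27800, 28100, 25600 and 28200 (−0.40 ± 0.13, adjusted p = 0.0467). miR-9-5p stood at 53000 to 82300 and at 57400 to 64300.

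Of the miRNAs reported to target opioid receptor messages or to respond to opioids, 2 of 8 tested rose, against 5.7% of all miRNAs, and none fell. miR-339-3p rose from 36.3, 33.7, 37.4 and 49.2 to 71.3, 73.4, 89.7 and 90.5 (1.04 ± 0.29, adjusted p = 0.0344). miR-103-3p, reported to target the mu-opioid receptor, rose from 9330, 8420, 7750 and 7120 to 10200, 10200, 10300 and 11200 (0.37 ± 0.12, adjusted p = 0.0458). The median of the list was −0.18 (−0.02 over all miRNAs), and 4 further members were lower at an unadjusted p below 0.05, against 21.1% of all.

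The let-7 family, abundant in mature neurons, showed calls on passenger strands. Of 20 tested members, let-7b-3p rose from 147, 165, 153 and 123 to 208, 235, 209 and 220 (0.57 ± 0.17, adjusted p = 0.0368) and let-7d-3p from 633, 560, 558 and 464 to 774, 843, 694 and 870 (0.53 ± 0.16, adjusted p = 0.0368), and none fell, against 5.7% higher and 6.33% lower over all miRNAs. In the 29 family, which restrains matrix genes, miR-29b-2-5p rose from 16.4, 19, 17.8 and 14.4 to 22.1, 40.6, 32.9 and 36.8 (0.90 ± 0.22, adjusted p = 0.0282) while miR-29a-3p fell, out of 7 tested, beside the same shares over all miRNAs.

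The imprinted cluster of chromosome 12 gave the most calls of any list, being also the longest. Of 73 tested members (110 in the table), 11 rose and 4 fell at LOEL 6 hours (median 0.08), against 5.7% and 6.33% of all miRNAs. Its summed level was 140000 to 201000 at 0 hour and 183000 to 208000 at 6 hours.

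Seeds were compared for the called miRNAs that share one with other tested miRNAs, 13 seeds in all, and these family members were read after their values had been seen. In most families 1 member was called. miR-26a-5p fell, while miR-26b-5p, with the same seed UCAAGUA, had a log2 change of 0.06 (adjusted p = 0.717). miR-125b-5p, which is abundant in brain, fell by 1.20 on the log2 scale, against −0.29 for miR-125a-5p and −0.23 for miR-351-5p (seed CCCUGAG). miR-103-3p rose and miR-107-3p had a change of 0.22 (seed GCAGCAU). Of 6 tested miRNAs with the seed AGCAGCA of miR-16-5p, which restrains the cell cycle, miR-16-5p was called (−0.55), and the others ranged from −0.61 in miR-15b-5p to 0.69 in miR-497a-5p. miR-27a-3p (−0.76) was called and miR-27b-3p (−0.17) was not (seed UCACAGU).

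A further 15 lists, with 59 tested members, had no call at LOEL 6 hours. They were those of leukocytes and microglia, inflammation feedback, choroid plexus, the 183-96-182 cluster, multiciliated cells, p53, erythroid cells, hypoxia, muscle, liver, endothelium, smooth muscle and fibroblasts, the 17-92 cluster, Hox genes of the hindbrain, and neuroendocrine cells. At an unadjusted p below 0.05, 5 of these 59 members were higher and 7 lower, against 14.8% higher and 21.1% lower over all miRNAs. miR-150-5p of lymphocytes stood at 4170, 2050, 1630 and 1890 at 0 hour and at 2810, 4790, 4570 and 4420 at 6 hours (0.84 ± 0.36, adjusted p = 0.0987). miR-210-3p, the usual marker of hypoxia, stood at 138, 145, 120 and 141 and at 163, 178, 185 and 169 (0.35 ± 0.13, adjusted p = 0.0686). In miR-210-3p the groups did not overlap, although it did not pass the test. The main members of the lists for choroid plexus (miR-204-5p, log2 change −0.01), red cells (miR-486a-5p, −0.12), inflammation (miR-21a-5p, 0.07), muscle (miR-133a-3p, −0.04), liver (miR-192-5p, −0.02), endothelium (miR-126a-5p, 0.31), smooth muscle (miR-143-3p, 0.11), multiciliated cells (miR-34c-5p, −0.40), p53 (miR-34a-5p, −0.21), the 17-92 cluster (miR-92a-3p, 0.61), the hindbrain (miR-10b-5p, 0.01) and neuroendocrine cells (miR-375-3p, −0.10) did not pass.

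**Figure D2:**
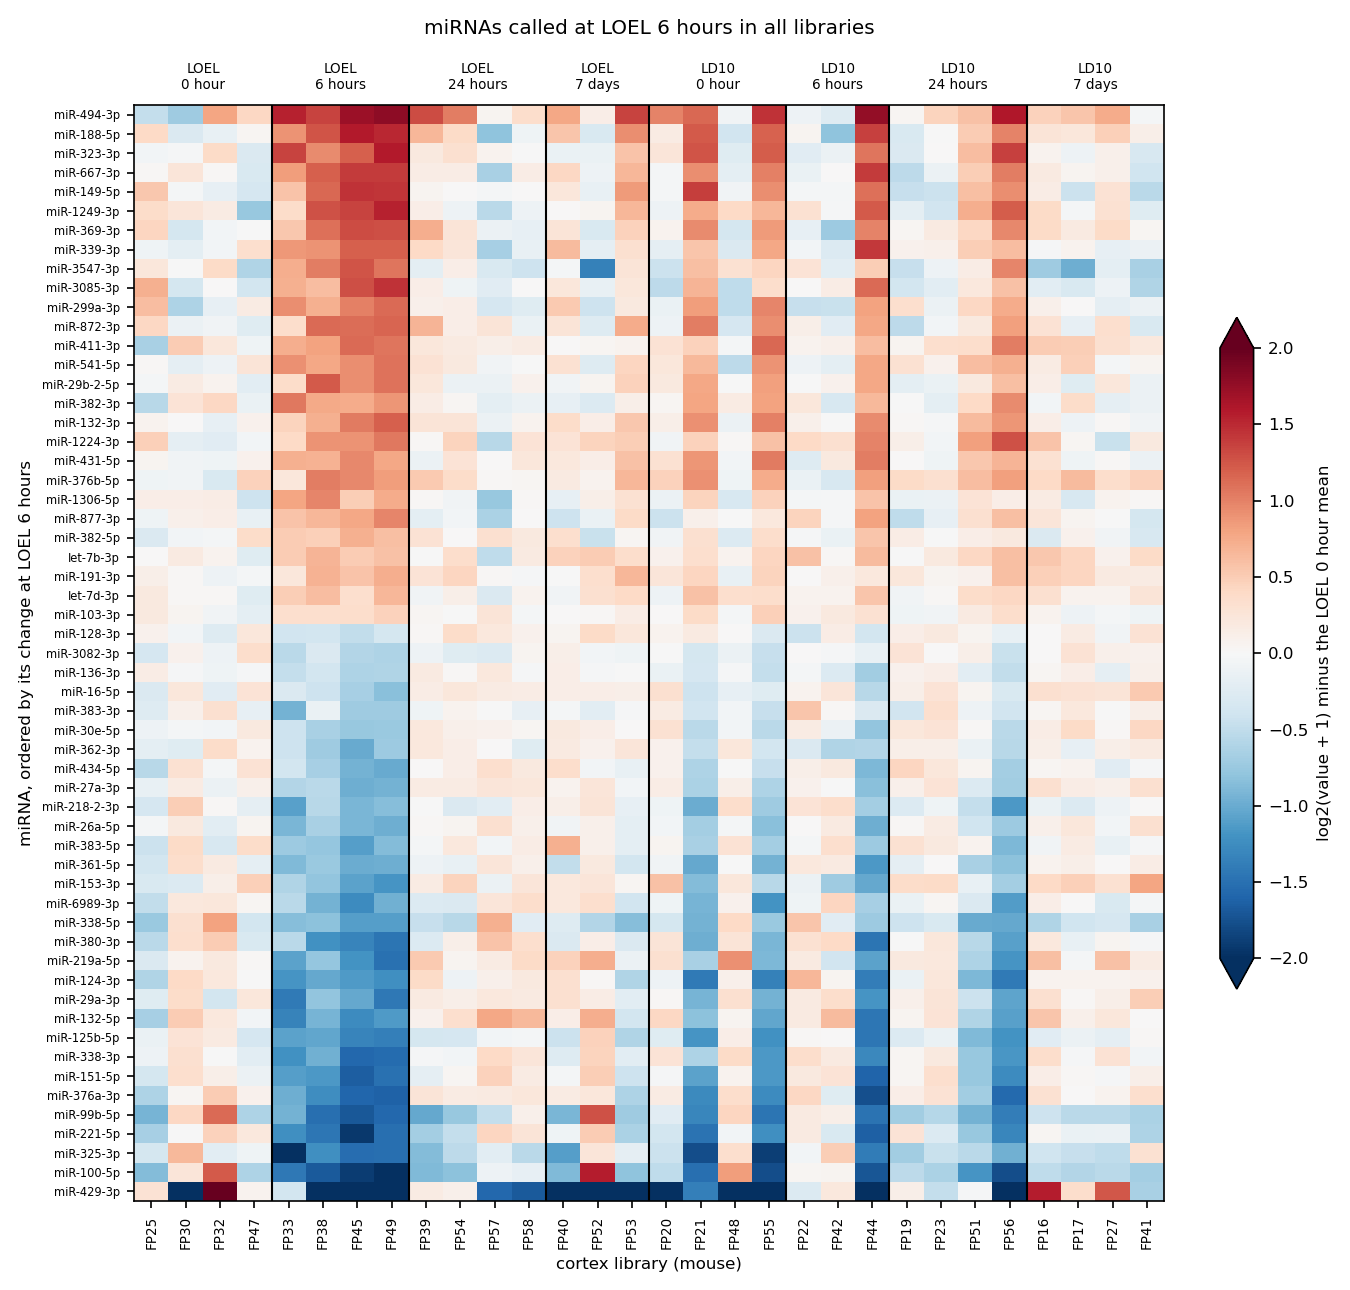
The 57 miRNAs called at LOEL 6 hours (vertical axis, ordered by their change) in the 30 libraries (horizontal axis, by group), coloured by log2(value + 1) minus the LOEL 0 hour mean. FP21 and FP55 (LD10 0 hour), FP44 (LD10 6 hours) and FP56 (LD10 24 hours) carry the colours of the LOEL 6 hours libraries.

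The pattern of LOEL 6 hours was also present in single LD10 libraries of other times. Each library was compared with the LOEL means of 0 hour and 6 hours, miRNA by miRNA. In FP21 and FP55 of LD10 0 hour, 53 of the 57 miRNAs (93%) lay nearer to the LOEL 6 hours mean. The same held for 53 in FP44 of LD10 6 hours and for 54 (94.7%) in FP56 of LD10 24 hours. In the remaining LD10 mice of 0 hour and 6 hours, FP20, FP48, FP22 and FP42, it held for 2 to 4. FP51 of LD10 24 hours was between, with 21 (36.8%), and the 4 LD10 mice of 7 days had 0 to 7. At LOEL, the mice of 24 hours had 1 to 10 and those of 7 days 6 to 19. Over all 474 miRNAs the share nearer to LOEL 6 hours was 69.6% to 74.5% in FP21, FP55, FP44 and FP56 and 19.2% to 48.3% in those of the 30 libraries outside the groups compared and outside these 4.

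FPB2, the LD10 mouse of 6 hours outside the number range, had 50 of the 57 nearer to LOEL 6 hours and 68.4% of all 474. miR-26a-5p, an abundant neuronal and glial miRNA that was singled out after its values had been seen, was at 56200, 66100, 50200 and 60500 at LOEL 0 hour and at 30700, 37000, 30800 and 29300 at LOEL 6 hours (−0.86 ± 0.21, adjusted p = 0.0282). At LD10 it was at 56000, 36200, 56500 and 32300 at 0 hour, at 58000, 65600 and 29500 at 6 hours, at 59100, 65100, 43900 and 35100 at 24 hours, and at 62500, 67800, 55600 and 72500 at 7 days. FP21, FP55, FP44 and FP56 thus lay within the range of LOEL 6 hours (29300 to 37000), FP51 lay between the groups, and the other LD10 mice lay at or above the lowest LOEL mouse of 0 hour. The ratio of the miR-132 arms followed, at 7.68, 31.6, 8.42 and 39.7 at LD10 0 hour, at 8.98, 6.11 and 49.7 at 6 hours, at 9.36, 7.73, 22.3 and 37.5 at 24 hours, and at 7.14 to 9.05 at 7 days. miR-338-3p was at 5030, 2710, 5430 and 1880 at LD10 0 hour and at 5280, 4710 and 1700 at 6 hours.

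**Figure D3:**
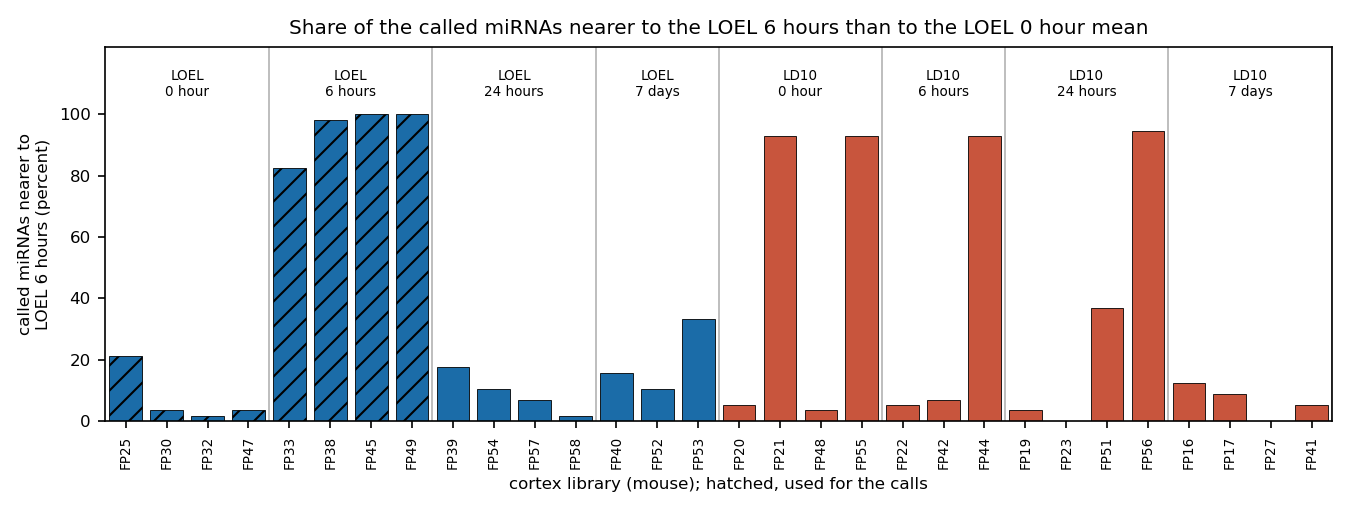
Share of the 57 called miRNAs (vertical axis, percent) that lay nearer to the LOEL 6 hours mean than to the LOEL 0 hour mean in each library (horizontal axis). Hatched libraries were used to make the calls, and of the others FP21, FP55, FP44 and FP56 reach 93% to 94.7%.

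Depth and base composition moved with this pattern in part, and their part in it was not tested. FP21, FP44 and FP56 held 3236306, 2747257 and 3795334 reads, in the range of the LOEL 6 hours libraries, while FP55 held 5412119. FP22 and FP27, with 2683669 and 2844308 reads, had 3 and 0 of the 57 nearer to LOEL 6 hours. With all libraries thinned to 2198954 reads, 50 miRNAs were called at LOEL 6 hours, 46 of them among the 57. Across miRNAs, the deviation of a library from the mean of all libraries had a correlation with the GC content of the mature sequence of 0.164 to 0.277 in the LOEL 6 hours libraries, −0.13 to 0.07 at LOEL 0 hour and 0.166 to 0.373 in FP21, FP55, FP44 and FP56. It was 0.179 in FP40 of LOEL 7 days, which had 9 of the 57 nearer to LOEL 6 hours. The median GC content was 50% for the 27 that rose, 44.2% for the 26 with a sequence among the 30 that fell, and 47.6% for all. With a linear GC trend removed from each library, 48 miRNAs were called against 57 over the same 415 miRNAs. The labels name no batch of extraction or sequencing, and whether the cortical pieces differed in their make-up was not tested beyond the lists above.

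At LD10, no miRNA passed the test at any time. At 6 hours 0 passed (0%), with 17 at an unadjusted p below 0.05 (3.59%), 3 of them higher (0.633%) and 14 lower (2.95%). At 24 hours 0 passed (0%), with 6 at an unadjusted p below 0.05 (1.27%), 3 higher (0.633%) and 3 lower (0.633%). At 7 days 0 passed (0%), with 48 at an unadjusted p below 0.05 (10.1%), 35 higher (7.38%) and 13 lower (2.74%). The test over the 4 times gave 0 (29 at an unadjusted p below 0.05, 6.12%). edgeR gave 0 in all 3 comparisons, and DESeq2 gave 0, 2 and 2. Without FP21, FP44, FP55 and FP56 the counts of limma remained at 0, with 2 mice at 0 hour, 2 at 6 hours and 3 at 24 hours.

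The 3 smallest p at LD10 6 hours belonged to miR-142a-3p, miR-33-5p and miR-136-5p. miR-142a-3p, of blood-derived cells, stood at 50, 46.9, 39.8 and 71 at 0 hour and at 35.1, 26.4 and 37.9 at 6 hours (log2 change −0.62 ± 0.19, adjusted p = 0.997). miR-33-5p, which lies in an intron of Srebf2 and restrains cholesterol export, stood at 105, 61.9, 135 and 74.2 and at 57.8, 35.6 and 66.5 (−0.79 ± 0.26, adjusted p = 0.997). For miR-142a-3p the groups did not overlap, and for miR-33-5p they did. miR-136-5p, antisense to Rtl1 in the chromosome 12 cluster, stood at 3640, 3010, 3760 and 2440 and at 2880, 1950 and 2060 (−0.49 ± 0.17, adjusted p = 0.997).

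At LD10 24 hours the smallest p belonged to miR-505-3p (log2 change −0.60 ± 0.20), miR-181c-5p (0.33 ± 0.13) and miR-1843a-3p (−0.55 ± 0.23), each with an adjusted p of 0.999. miR-181c-5p was at 9150, 8740, 7420 and 7140 at 0 hour and at 11000, 11300, 9060 and 9450 at 24 hours, where FP51 lay just below FP20. At LOEL 24 hours they belonged to miR-144-5p (0.55 ± 0.19), miR-760-3p (−0.46 ± 0.18) and miR-139-3p (−0.49 ± 0.21), also with an adjusted p of 0.999. miR-144-5p, an erythroid miRNA, was at 81.7, 58, 63.4 and 80.7 at LOEL 0 hour and at 117, 94.6, 122 and 85 at 24 hours, and these groups did not overlap. The erythroid list had 2 of 5 members higher there at an unadjusted p below 0.05 and a median of 0.36, against 0.633% of all miRNAs higher. Its summed level overlapped, at 5620 to 10600 at LOEL 0 hour (median 6590) and 5100 to 9200 at LOEL 24 hours (median 6880). At LD10 miR-144-5p was at 66.7, 61, 77.8 and 104 and at 78, 97.3, 87.8 and 96.9.

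Changes at 6 hours were then compared between the doses, whose mice are all different. Of the 57 miRNAs called at LOEL, 16 (28.1%) changed in the same direction at LD10, against 188 of all 474 (39.7%), and 0 had an unadjusted p below 0.05 there. The 27 that rose at LOEL had a median log2 change of −0.14 at LD10, and the 30 that fell had 0.15. LD10 0 hour holds FP21 and FP55 and LD10 6 hours holds FP44. The difference between the doses in the change from 0 hour to 6 hours was called for 0 miRNAs by limma (109 at an unadjusted p below 0.05, 23%), 0 by edgeR and 17 by DESeq2. Without FP44 limma called 123.

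**Figure D4:**
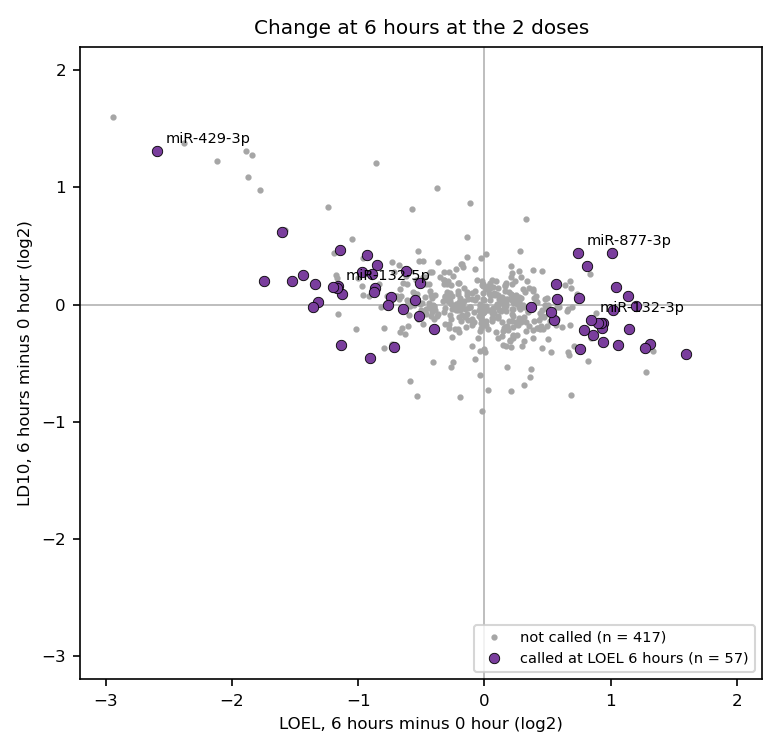
Log2 change from 0 hour to 6 hours at LOEL (horizontal axis) and at LD10 (vertical axis) for the 474 miRNAs, with the 57 called at LOEL in purple. The purple points range from −2.59 to 1.60 at LOEL and from −0.46 to 1.31 at LD10.

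With both doses averaged, no miRNA passed at 6 hours (0%), 24 hours (0%) or 7 days (0%). At an unadjusted p below 0.05 there were 49 at 6 hours (10.3%; 20 higher, 4.22%, and 29 lower, 6.12%). There were 12 at 24 hours (2.53%; 7 higher, 1.48%, and 5 lower, 1.05%) and 19 at 7 days (4.01%; 9 higher, 1.9%, and 10 lower, 2.11%). By edgeR the counts were 0 at each time, and by DESeq2 they were 5, 2 and 2. The smallest p at 6 hours belonged to miR-362-3p (log2 change −0.54 ± 0.14, adjusted p = 0.149), miR-136-5p (−0.45 ± 0.12, adjusted p = 0.149) and miR-877-3p (0.59 ± 0.16, adjusted p = 0.192). miR-877-3p, from an intron of Abcf1, is one of a pair followed because the study picked both from cortical data of this series. It rose at LOEL from 41.1, 46.9, 47.8 and 39 to 64.8, 69.6, 75.2 and 86.6 (0.74 ± 0.22, adjusted p = 0.0368) and stood at LD10 at 32.1, 46.6, 43.5 and 50.4 and at 59.8, 42.8 and 76.4. Its LOEL groups did not overlap and its LD10 groups did. miR-324-5p, the partner of the pair, stood at 174, 247, 226 and 147 at LOEL 0 hour and at 223, 211, 184 and 180 at 6 hours (0.03 ± 0.18, adjusted p = 0.925). At 24 hours the smallest p belonged to miR-144-5p (0.40 ± 0.13), miR-223-3p of myeloid cells (0.42 ± 0.16) and miR-3470b (−1.60 ± 0.66), each with an adjusted p of 0.993. At 7 days they belonged to miR-770-3p, from an exon of Meg3 (−0.43 ± 0.12, adjusted p = 0.578), miR-3060-3p (0.48 ± 0.15, adjusted p = 0.809) and miR-210-5p (0.42 ± 0.14, adjusted p = 0.809).

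The change from 0 hour to 7 days differed between the doses in 2 groups of miRNAs. The 200 family restrains ZEB1 and ZEB2 and keeps epithelial cells epithelial, and the 183-96-182 cluster is typical of sensory organs. At LOEL 0 hour miR-182-5p stood at 2410, 95.4, 5960 and 1060, and at LOEL 7 days at 112, 48.6 and 43.9. At LD10 0 hour it stood at 102, 753, 130 and 374, and at LD10 7 days at 3270, 1540, 2840 and 551. It was thus lower at 7 days than at 0 hour in LOEL (log2 change −4.13 ± 1.19, adjusted p = 0.358) and higher in LD10 (2.76 ± 1.10, adjusted p = 0.443), and neither change passed by itself. The groups overlapped in both doses.

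The difference between the doses in this change passed for 8 miRNAs (1.69%, with 24 or 5.06% at an unadjusted p below 0.05), which were all 3 tested members of the cluster and 5 of 6 tested members of the family. These are differences between 2 changes and not between levels at 7 days. The log2 change from 0 hour to 7 days was higher at LD10 than at LOEL by 6.88 ± 1.62 for miR-182-5p, 7.19 ± 1.83 for miR-183-5p and 5.61 ± 1.41 for miR-96-5p. For the family the differences were 6.87 ± 1.48 for miR-141-3p, 5.45 ± 1.26 for miR-200c-3p, 5.06 ± 1.21 for miR-429-3p, 5.06 ± 1.33 for miR-200a-3p and 4.13 ± 1.06 for miR-200b-3p (limma adjusted p of 0.0355 to 0.0443 for the 8). This comparison was added after values had been seen, and edgeR and DESeq2 called 8 and 9 in it. At an unadjusted p below 0.05, LOEL at 7 days had 6 of 6 members of the family and 3 of 3 of the cluster lower (medians −2.24 and −4.13, 0.04 over all miRNAs), against 2.53% of all miRNAs. LD10 at 7 days had 5 of 6 and 3 of 3 higher (medians 2.68 and 2.76), against 7.38% of all. The interaction of dose and time over all 4 times called 0 (68 at an unadjusted p below 0.05, 14.3%), and its 5 smallest p belonged to miR-141-3p, miR-429-3p, miR-200c-3p, miR-182-5p and miR-96-5p (adjusted p = 0.292 for each).

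Levels of these miRNAs varied widely between the mice of a group. miR-141-3p stood at 128, 13, 613 and 167 at LOEL 0 hour, 83.1, 5.3, 5.98 and 13.4 at 6 hours, 157, 131, 32.6 and 27.7 at 24 hours, and 16.1, 11.8 and 8.34 at 7 days. At LD10 it stood at 14.1, 21.5, 9.73 and 18.3 at 0 hour, 115, 63.1 and 15.2 at 6 hours, 160, 65.4, 122 and 4.36 at 24 hours, and 365, 211, 303 and 76.8 at 7 days. All 4 LD10 mice of 7 days exceeded all 4 of 0 hour and all 3 LOEL mice of 7 days. miR-96-5p was scarce, at 5.02, 0.314, 116 and 8.95 at LOEL 0 hour and 0.155, 0.664 and 0.199 at 7 days, the latter near the value of single reads. The summed level of the family was 161 to 4360 at LOEL 0 hour and 161 to 213 at LOEL 7 days, and 125 to 367 at LD10 0 hour and 545 to 2810 at LD10 7 days. Its median was higher at LOEL at 0 hour (983 against 185 at LD10) and lower at LOEL at 7 days (197 against 1680). The median of the cluster had the same order, at 1960 against 279 and then at 52 against 2470. Each difference between the doses thus rests on the 0 hour groups as well. The differences lost their calls (0) when any one of 12 libraries was left out, namely FP25, FP32, FP47, FP40, FP52 or FP53 of LOEL or FP20, FP48, FP55, FP16, FP17 or FP27 of LD10, and 4 were left without FP38 or FP23. Which part of the cortex or neighbouring tissue each piece held is not given, and its part in these levels was not tested.

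**Figure D5:**
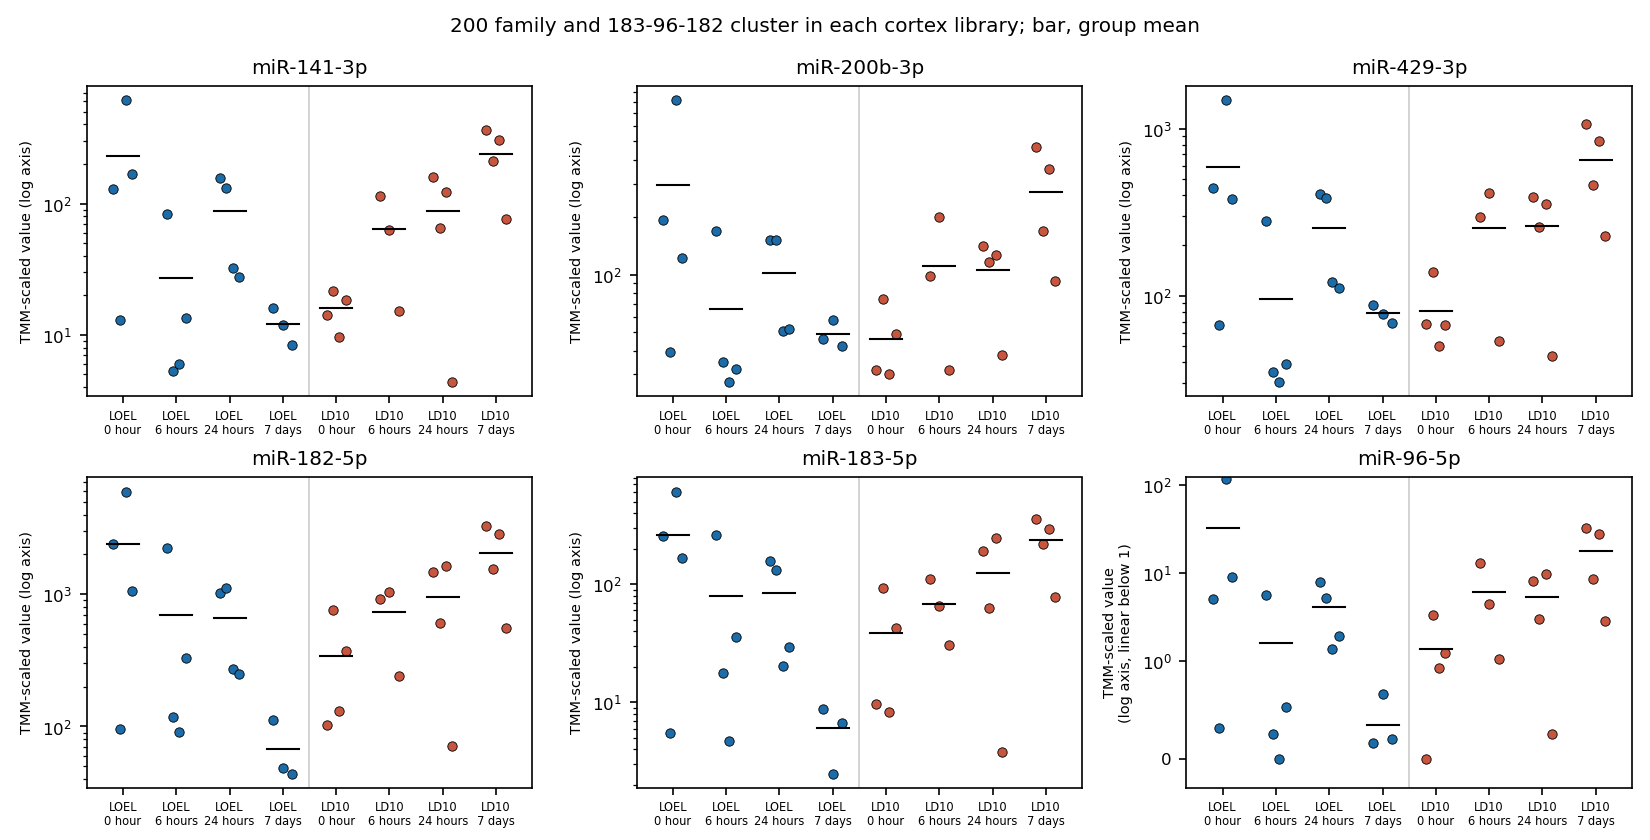
TMM-scaled values (log axis) of 3 members of the 200 family and the 3 of the 183-96-182 cluster in each library, in blue for LOEL and red for LD10, with a bar at the group mean. For miR-141-3p the LOEL mice of 7 days sit at 8.34 to 16.1 and the LD10 mice of 7 days at 76.8 to 365.

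Apart from this group, the smallest p at 7 days belonged to miR-744-5p and miR-3060-3p at LOEL and to miR-770-3p at LD10. miR-744-5p, from an intron of Map2k4, stood at 1770, 1630, 1260 and 2150 at LOEL 0 hour and at 2700, 2380 and 2850 at 7 days (0.65 ± 0.19, adjusted p = 0.358). miR-3060-3p stood at 3.88, 5.96, 6.79 and 8.13 and at 11, 10.6 and 10.5 (0.74 ± 0.22, adjusted p = 0.358). Both were without overlap, as were 12 of all 474 miRNAs in that comparison (2.53%). miR-770-3p stood at 57.6, 72.4, 81.1 and 65.9 at LD10 0 hour and at 46.1, 43, 48.5 and 50.8 at 7 days (−0.54 ± 0.16, adjusted p = 0.343), again without overlap, as for 21 of 474 (4.43%).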

How the data were processed

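Total RNA from cortex was made into small RNA libraries (TruSeq) and sequenced on a NextSeq 500. Per the labels and methods, the authors aligned reads with Bowtie 1.0.0 (mm9, miRBase). The authors deposited 1 cortex table whose values are a TMM-scaled signal (edgeR). In every library 100% of values under 200 reads came out as whole reads with a tolerance of 0.1, so whole reads were recovered.

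The filter kept miRNAs that reached 10 in 3 or more of 30 libraries, which left 474 of 1960. They held at least 99.91% of the signal. The test was limma 3.58.1 (R 4.3.3) with a trend on log2(value + 1), 8 group means and Benjamini-Hochberg adjustment at 0.05. Alternatives were edgeR 4.0.16 and DESeq2 1.42.0 on recovered reads, other scaling, filter and pseudocount, library weights and other sets of libraries. The members, the miRNA lists and the comparisons were chosen with earlier results of these data known. The miRNAs named are, for each comparison, up to 6 per direction with the largest change among those that passed, or the 3 with the smallest p where under 3 passed, the 5 smallest p of dose by time, up to 4 called members of each list or its most abundant member, and miR-324-5p and miR-877-3p. Others are given as chosen after their values were seen. Fold changes of scarce miRNAs are understated by the pseudocount. Replicates are different mice, and p-values measure the spread between them. Within groups, even the closest libraries differed by more than sampling noise. The tests were run on simulated data in which each miRNA was drawn independently. No shift shared by a whole library was simulated, so that run cannot show how the tests act on one.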

Additional observations from a re-analysis of the deposited data

Results flagged for a closer look

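A sample far from the rest of its group was found in 17 of 222 groups of 4 mice (37 miRNAs checked). Chance would give about 1 in 20 if these checks were independent. Members of the 200 family and the 183-96-182 cluster were flagged together in the same mice, so the count cannot be held against that rate. FP33 of LOEL 6 hours was high for 8 members of the 200 family and the 183-96-182 cluster. It stood at 2240 for miR-182-5p (others 90.2 to 328), 279 for miR-429-3p (30.3 to 39.2), 276 for miR-200a-3p (20.9 to 45.3), 170 for miR-200b-3p (27.3 to 34.8), 260 for miR-183-5p (4.7 to 35.8), 83.1 for miR-141-3p (5.3 to 13.4), 16.4 for miR-200c-3p (1.28 to 1.51) and 5.65 for miR-96-5p (0 to 0.526). FP32 of LOEL 0 hour was high for miR-200a-3p (1350, others 37.8 to 242) and miR-96-5p (116, others 0.314 to 8.95).

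In LD10, FP48 stood at 154 for miR-3470b at 0 hour (others 2.09 to 3.02), FP16 at 8.7 for the same miRNA at 7 days (2.03 to 2.49), FP41 at 44.9 for miR-325-3p at 7 days (25.2 to 27.3) and FP56 at 10.3 for miR-505-3p at 24 hours (5.81 to 6.28). FP21 was low for miR-324-5p at 0 hour (125, others 180 to 191) and FP20 for miR-1843a-3p (28.8, others 52 to 55.6). FP57 of LOEL 24 hours was low for miR-667-3p (281, others 487 to 492).

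The change from 0 hour to 7 days differed between the doses by a test of the difference itself (limma) for miR-141-3p (6.87), miR-200c-3p (5.45), miR-182-5p (6.88), miR-429-3p (5.06), miR-96-5p (5.61), miR-183-5p (7.19), miR-200b-3p (4.13) and miR-200a-3p (5.06), as LD10 minus LOEL on the log2 scale. In LD10 each of the 4 mice of 7 days lay above the group mean of 0 hour for miR-141-3p.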

How the results depend on the processing

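No paired analysis was possible because every mouse has its own number and belongs to 1 group. For 49 changes of named miRNAs, no direction turned under any alternative. These were the changes that named a miRNA in a comparison with 0 hour, and those of list members called at LOEL 6 hours. The other named miRNAs, among them miR-324-5p and the uncalled main members of lists, were not checked in this way. The number of calls at LOEL 6 hours was 104 by DESeq2, 147 with library weights, 109 with LOEL alone in the fit, 25 with FP24 and FPB2 added, 13 with FP24 alone added, 140 without FP21, FP44, FP55 and FP56, and 0 with no filter on low values, where scarce miRNAs join the fit. For time at LOEL it was 104 by DESeq2, 188 with weights, 98 with LOEL alone, 134 without those 4 libraries and 0 with no filter. DESeq2 called 9 at LOEL 7 days, 2 at LD10 24 hours, 2 at LD10 7 days, 5, 2 and 2 for both doses at 6 hours, 24 hours and 7 days, 4 for time at LD10, 6 for dose by time and 17 for the difference between doses at 6 hours. Library weights gave 48 for dose by time and 80 for that difference. Without those 4 libraries there were 7 for both doses at 6 hours, 36 for dose by time and 12 for the difference at 6 hours. The difference at 7 days gave 5 with FP24 added, with or without FPB2, and 0 with no filter. The cause of these shifts was not tested.

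Leaving out each library in turn gave 0 to 114 calls at LOEL 6 hours, 0 to 90 for time at LOEL, 0 to 4 at LOEL 7 days, 0 to 5 for both doses at 6 hours, 0 to 63 for dose by time (63 without FP44), 0 to 123 for the difference between doses at 6 hours and 0 to 9 at 7 days. In the other comparisons it gave 0 throughout. Depth limits scarce miRNAs, for which 1 read is worth up to 0.4273. The differences between doses at 6 hours and 7 days and the added alternatives (FP24 or FPB2 alone, the 4 libraries left out, thinning and GC) were chosen after seeing the data.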
